A study of Homo sapiens with 2 samples.

Results

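The genes described here make, transport and load the peptides that cells show to T cells. They are B2M, HLA-E, TAP1, TAP2, TAPBP, ERAP1, PSMB8, PSMB9 and NLRC5 of the class I pathway, and CD74 of the class II pathway. These 10 of the 19775 genes on the array were taken as a list of known function, and every probe set whose platform annotation lists one of them was read. This gave 25 probe sets, and 0 of them list a second gene. RNA came from A549, an established human lung adenocarcinoma cell line with features of alveolar epithelial cells, after 12 days in spheroid culture or in monolayer culture. Spheroid cells were unattached in DMEM/F12 without serum, with N2 supplement, EGF at 20 ng/ml and bFGF at 10 ng/ml. Monolayer cells were attached in DMEM with 10% FBS, so attachment, serum, base medium, supplement and growth factors cannot be told apart. The study used this comparison to look for genes of the stem-like and mesenchymal state of spheroid cells. Each culture was hybridised to 1 array, so no value here has a replicate check and no p-value was computed.

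In the class I pathway the proteasome cuts cytosolic proteins into peptides, and interferon-gamma exchanges its standard catalytic subunits for the immune subunits encoded by PSMB8, PSMB9 and PSMB10. The transporter formed by TAP1 and TAP2 carries peptides into the endoplasmic reticulum, where ERAP1 trims them and tapasin, the product of TAPBP, helps to load them onto a heavy chain paired with beta2-microglobulin, the product of B2M. NLRC5 is the transactivator of class I genes, as CIITA is of class II genes. CD74, the invariant chain, guards the peptide groove of class II molecules on their way to endosomes. Alveolar type II cells of normal lung are known to carry class II molecules and CD74.

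The deposited signals are linear intensities, made with MAS5 and GCOS according to the submitters' processing notes and scaled to a trimmed mean of 499.9 on each array. The floor used here is each array's median, 119 in spheroid culture and 108 in monolayer culture. A value under it was set to it before a ratio was taken, a ratio with 1 culture at the floor is a lower bound, and with both at the floor no ratio is given. A gene was read from its brightest probe set. All other probe sets are given beside it for the members, and for only some of the other genes named. Signals of different probe sets do not share a scale, and levels were therefore not compared between genes. Both arrays measured 11528 genes above the floor, and their log2 ratios (spheroid over monolayer throughout) had a spread of 0.53, given as a robust SD. In the 5453 genes with 2 or more such probe sets, the difference between the ratios of the brightest and the next brightest had an SD of 0.50. All 6 epithelial markers were above the floor in both cultures. KRT8 had signals of 18884 in spheroid culture and 22924 in monolayer culture, and KRT18 had 39147 in spheroid culture and 50068 in monolayer culture. KRT7 was 3.75-fold lower in spheroid culture and KRT19 was 4.64-fold higher. Of 13 leukocyte and antigen-presenting cell markers with a probe set, 8 were at the floor in both cultures. PTPRC, which marks leukocytes, was among these on all 5 of its probe sets. CD3E, CD79A and CD83 were above the floor in both cultures, CD80 in spheroid culture alone and CD14 in monolayer culture alone. The samples are A549 by their cell line label, while a free text field of each names a hepatoma line and a compound, with no time of treatment elapsed. Of 6 hepatoma markers with a probe set, 3 (APOH, SERPINA1 and AFP) were at least 2-fold higher in spheroid culture, where 6.86% of all genes were, and TTR and GPC3 were at the floor in both. The summed signal of the 6, with values under the floor included, was 10274 in spheroid culture and 2017 in monolayer culture. APOH alone made up 8136 of this in spheroid culture and 919 in monolayer culture. The part of these markers in the results below was not tested.

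Most of the antigen presentation genes had similar signals in spheroid and monolayer culture. Of the 10 genes, 9 were above the floor in at least 1 culture, 8 of them in both. In spheroid culture NLRC5 was higher by at least 2.58-fold and PSMB9 was 2.37-fold lower, while the other 7 lay within 2-fold. The limit of 2-fold was reached upwards by 1 and downwards by 1 of the 9 genes, and by 6.86% and 5.50% of all 13229 genes above the floor in at least 1 culture. At 3-fold the counts were 0 higher and 0 lower, beside 2.34% higher and 2.11% lower over all genes. The 9 genes had a median log2 ratio of 0.21 and all genes one of 0.04. Without probe sets ending in _s_at or _x_at, which leaves 6 members above the floor, the members had a median of -0.18 and all genes one of 0.07. In 6 of the 9 genes the signal was higher in spheroid culture by any amount and in 3 it was lower. Over all 13229 genes, 6980 were higher and 6249 lower, and this stands beside every count of genes by direction below. With probe sets as the unit, 16 of 25 were above the floor, 10 of them higher and 6 lower.

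**Figure D1:**
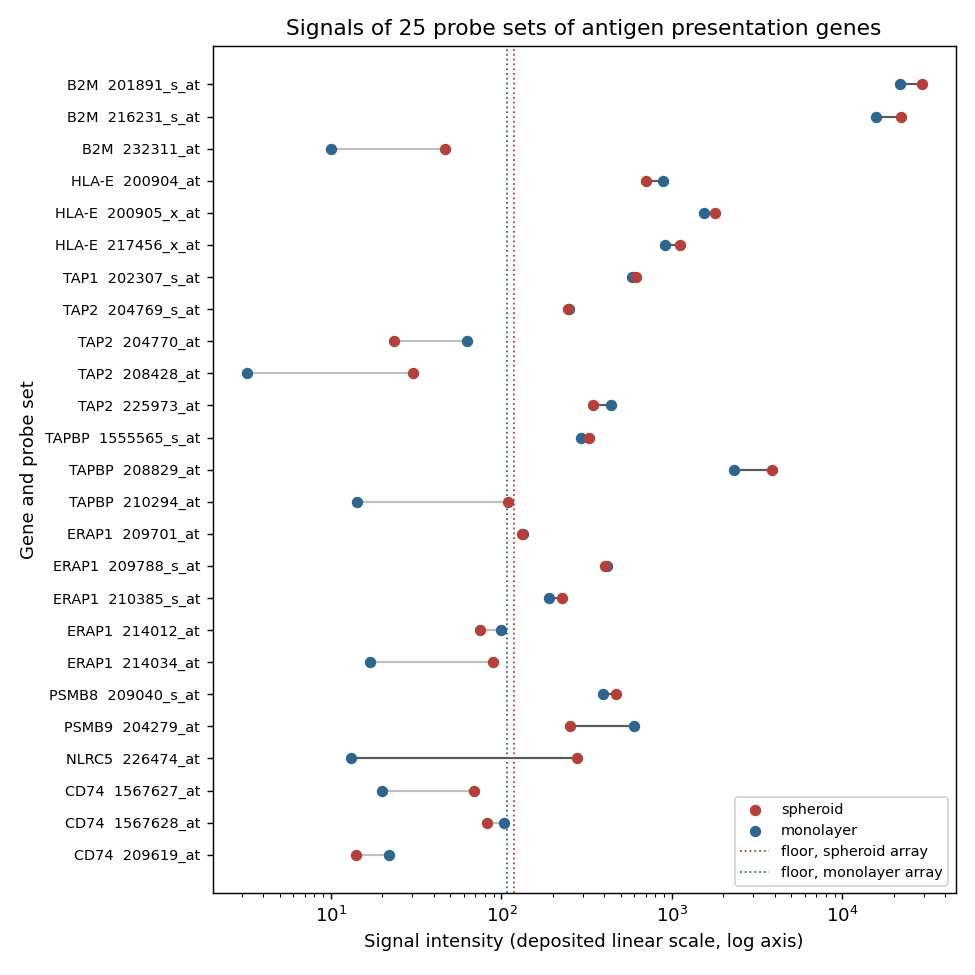
Signal intensity on a log axis for each of the 25 probe sets, 1 row per probe set, with a red point for the spheroid array, a blue point for the monolayer array and dotted lines for the floor of each array. The points nearly coincide for TAP1 and for the brightest probe set of ERAP1, and PSMB9 has its monolayer point to the right (598). NLRC5 has only its spheroid point (279) above the floor, and all 3 rows of CD74 lie below the floor.

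The immune subunits of the proteasome did not move together. PSMB9, the immune counterpart of the standard subunit PSMB6, had a signal of 252 in spheroid culture and 598 in monolayer culture on its only probe set. Its log2 ratio was -1.24, and 3.56% of all genes above the floor had a lower one. PSMB8, the immune counterpart of PSMB5, had a signal of 473 in spheroid culture and 397 in monolayer culture, again on its only probe set. Its log2 ratio was 0.25, smaller than the SD between probe sets of a gene. The log2 ratio of PSMB9 was thus 1.50 below that of PSMB8.

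PSMB10, the third immune subunit, had 369 in spheroid culture and 492 in monolayer culture, 1.33-fold lower. The standard subunits were also slightly lower in spheroid culture. PSMB5 had 5688 in spheroid culture and 7177 in monolayer culture, with a log2 ratio of -0.34. PSMB6 had 5618 in spheroid culture and 7857 in monolayer culture, with a log2 ratio of -0.48. PSMB7 had 6766 in spheroid culture and 8898 in monolayer culture on its brightest probe set, with a log2 ratio of -0.40, and 285 in spheroid culture and 241 in monolayer culture on its other one. Against its own standard counterpart, the log2 ratio of PSMB9 was lower by 0.76, that of PSMB8 was higher by 0.59 and that of PSMB10 differed by -0.02. Of 9 measured genes of standard and immune catalytic subunits, activators and assembly factors other than PSMB8 and PSMB9, 7 were lower in spheroid culture and 2 higher, 0 of them by 2-fold, with a median log2 ratio of -0.35. PSME1, an activator subunit that interferon-gamma induces, had 3751 in spheroid culture and 5195 in monolayer culture. The cytosolic peptidases that shorten peptides further had 9 of 9 genes within 2-fold and a median log2 ratio of -0.05.

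Of the peptide transporter, TAP1 was close to equal in both cultures and TAP2 was slightly lower in spheroid culture. TAP1, which encodes 1 chain of the transporter, had a signal of 614 in spheroid culture and 586 in monolayer culture on its only probe set, 1.05-fold higher. TAP2, the other chain, had 346 in spheroid culture and 441 in monolayer culture on its brightest probe set, with a log2 ratio of -0.35. A second TAP2 probe set read 244 in spheroid culture and 249 in monolayer culture, and the remaining 2 were at the floor in both. Neither chain thus passed the 2-fold limit on any probe set above the floor. TAP1 and PSMB9 lie head to head on chromosome 6 and are transcribed away from each other, with their nearest start sites 488 bases apart. The log2 ratio of PSMB9 lay 1.31 below that of TAP1.

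Promoter stretches of these neighbours and of 3 other members are shown because interferon-responsive genes of this pathway carry known binding letters there. Sequences are from RefSeq on GRCh38.p14, 5′ to 3′ on the strand of the gene, with positions counted from the start site. Capitals mark the core read by interferon regulatory factors, which was searched as 2 copies of GAAA with any 2 bases between them on either strand. Overlapping matches are joined, and in PSMB9 the capitals mark CCAAT.
B2M, chr15:44711343-44711418, plus strand, -174 to -99: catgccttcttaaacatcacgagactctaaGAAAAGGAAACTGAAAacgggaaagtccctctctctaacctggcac
TAP1, chr6:32853793-32853868, minus strand, -164 to -89: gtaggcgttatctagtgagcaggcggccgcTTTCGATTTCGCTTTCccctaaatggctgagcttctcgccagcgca
TAP2, chr6:32838758-32838827, minus strand, -88 to -19: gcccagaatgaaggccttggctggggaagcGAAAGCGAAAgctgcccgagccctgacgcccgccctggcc
TAPBP, chr6:33314079-33314128, minus strand, -50 to -1: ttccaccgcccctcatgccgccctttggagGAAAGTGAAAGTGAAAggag
PSMB9, chr6:32853942-32854041, plus strand, -250 to -151: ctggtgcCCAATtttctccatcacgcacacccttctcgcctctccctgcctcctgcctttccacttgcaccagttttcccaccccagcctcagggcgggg

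Windows of 300 bases, from 250 before to 50 after each start, were present for 8 of the 10 members, with 11 windows in all. The double GAAA was found in 6 of these 8 genes, namely B2M, TAP1, TAP2, TAPBP, PSMB8 and ERAP1, and in 4.38% of all 27305 genes with a window. In PSMB8 and ERAP1 the match lies across or just after a start site and is not printed. The signals of these 6 genes ran from a log2 ratio of -0.35 in TAP2 to 0.76 in TAPBP. In PSMB9 and CD74 the window did not hold these letters. For PSMB9 this is limited by the window, which reaches only 250 bases before its start. The double GAAA of TAP1 lies beyond that end, between the start sites of TAP1 and PSMB9. TTCNNNGAA, the letters bound by STAT dimers, was in TAP1 and PSMB8 and in 9.38% of all genes. In TAP1 it lies in the window of another start site, at base 32852761. The TAP1 window of the printed stretch, with its start at base 32853704, does not hold these letters. A consensus of NF-kappaB was in B2M, TAP1, TAPBP, ERAP1 and CD74 and in 13.3% of all genes. CCAAT was in B2M, TAP1, PSMB9, ERAP1 and CD74 and in 39.7% of all genes. The CCAAT of TAP1 and that of PSMB9 are the same letters, read from either strand where both windows share 13 bases. A match describes the letters only, and binding was not measured.

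Peptide trimming and loading were represented by ERAP1 and TAPBP, of which TAPBP stood higher in spheroid culture. TAPBP had a signal of 3889 in spheroid culture and 2300.0 in monolayer culture on its brightest probe set, 1.69-fold higher, and 11.4% of all genes had a higher ratio. Its second probe set read 325 in spheroid culture and 292 in monolayer culture, with a log2 ratio of 0.15, and the third was at the floor in both. The probe sets of TAPBP therefore gave the same direction and different sizes. ERAP1, the trimming aminopeptidase, had 406 in spheroid culture and 418 in monolayer culture on its brightest probe set, 1.03-fold lower. Of its 5 probe sets, 2 gave no ratio, and the log2 ratios of the other 3 ran from -0.04 to 0.25. All 8 measured genes of folding and loading in the endoplasmic reticulum outside the member list were higher in spheroid culture, with a median log2 ratio of 0.32 and 0 past 2-fold. The values ran from 0.06 in PDIA3 to 0.52 in CANX, and none exceeded the robust SD of 0.53 over all genes. CANX, the chaperone calnexin, had 20445 in spheroid culture and 14305 in monolayer culture, and PDIA3, the disulfide isomerase of the loading complex, had 7377 in spheroid culture and 7070 in monolayer culture. 1 of the 8, ERAP2, was above the floor in spheroid culture alone, so its 1.23-fold is a bound.

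The light chain and the heavy chains of class I were mostly somewhat higher in spheroid culture. B2M had a signal of 29201 in spheroid culture and 21782 in monolayer culture, 1.34-fold higher. A second probe set of B2M read 22216 in spheroid culture and 15769 in monolayer culture, 1.41-fold higher, and the third was at the floor in both. The 2 log2 ratios of B2M, 0.42 and 0.49, were closer to each other than those of any other member with several probe sets above the floor. HLA-E, the heavy chain that presents leader peptides to NK cells, gave no single direction. Its brightest probe set read 1791 in spheroid culture and 1551 in monolayer culture, and another read 1116 in spheroid culture and 907 in monolayer culture. Both are named with the ending _x_at, by which Affymetrix marks probes that can also match other transcripts. The remaining HLA-E probe set, without that ending, read 703 in spheroid culture and 889 in monolayer culture. Its log2 ratio was -0.34, against 0.21 and 0.30 on the other 2.

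The heavy chains HLA-B, HLA-C, HLA-F and HLA-G, which share much sequence with HLA-E and with each other, had 14 probe sets. Of the 13 above the floor, all with the ending _x_at, 12 were higher in spheroid culture and 1, of HLA-G, was lower. HLA-C had a signal of 8411 in spheroid culture and 4201 in monolayer culture on its brightest probe set, 2.00-fold higher, and its other 3 probe sets were higher with log2 ratios down to 0.24. HLA-B had 3455 in spheroid culture and 2404 in monolayer culture on its brightest probe set, 1.44-fold higher. Its 3 log2 ratios ran from 0.10 to 0.52. Since these probe sets can share transcripts, they are not separate measurements of each gene, and how much each heavy chain contributed was not tested.

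**Figure D2:**
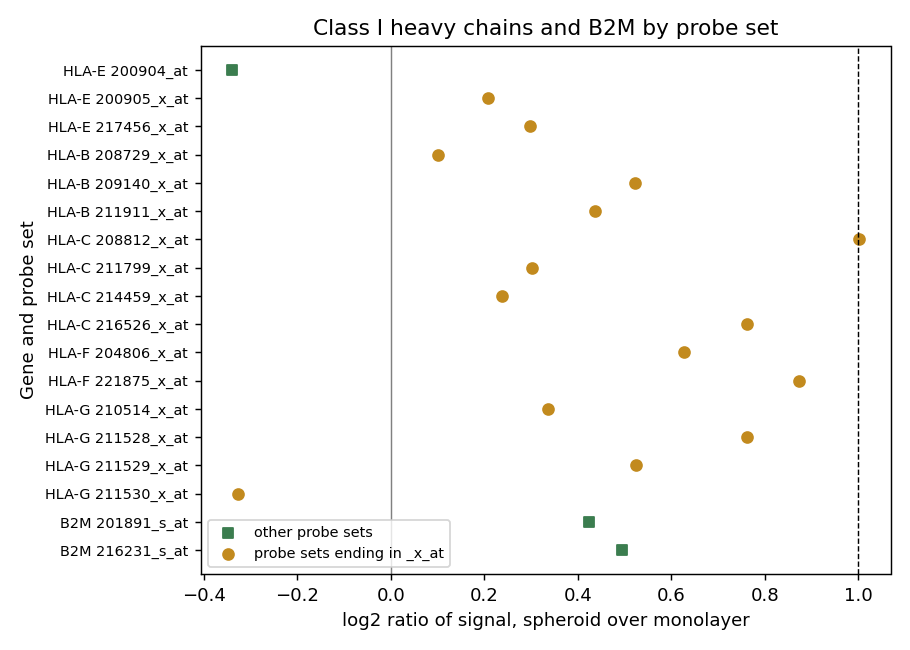
Log2 of spheroid signal over monolayer signal for each probe set above the floor of HLA-E, 4 other class I heavy chains and B2M, with circles for probe sets ending in _x_at, squares for the others and a dashed line at 2-fold higher. The square of HLA-E lies left of 0, at -0.34, while both of its circles lie right of 0, and the 2 squares of B2M lie at 0.42 and 0.49.

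NLRC5, the transactivator of class I genes, was the member with the highest ratio. Its signal was 279 in spheroid culture and 13.0 in monolayer culture, where it lay under the floor. The ratio is therefore a lower bound of 2.58-fold, a log2 ratio of 1.37, which is set by the floor. NLRC5 has 1 probe set, so this value has no check within the array, and it passed the floor through spheroid culture alone. 4 of the 10 members, NLRC5, PSMB9, PSMB8 and TAP1, were read from a single probe set, and both members past 2-fold are among them. Factors that bind class I and class II promoters together with the transactivators were mostly lower in spheroid culture, with 6 of 7 lower, 1 higher, 0 past 2-fold and a median log2 ratio of -0.36. RFX5, a subunit of the X box factor, had 1853 in spheroid culture and 3205 in monolayer culture, 1.73-fold lower.

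**Figure D3:**
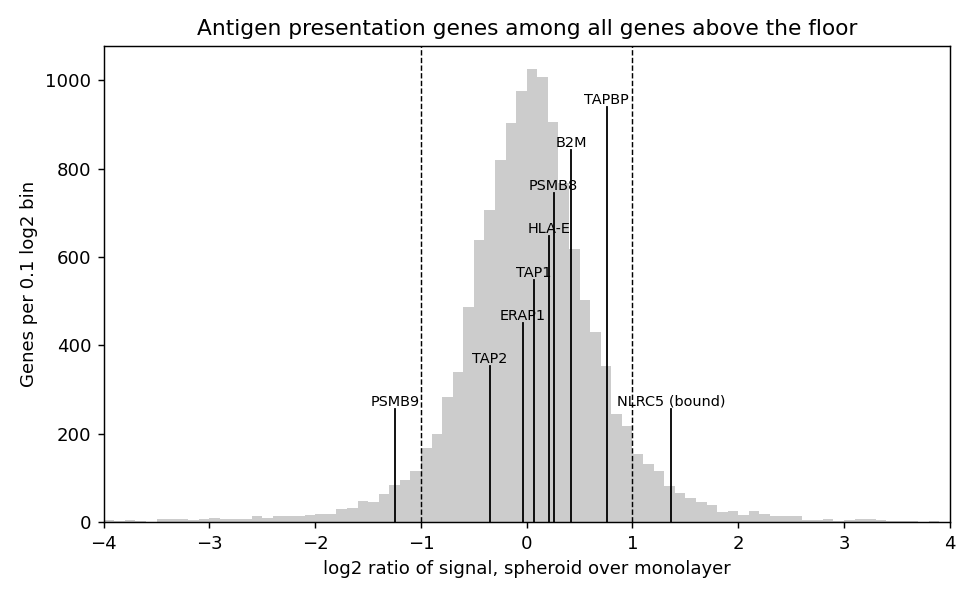
Distribution of log2 ratios of spheroid over monolayer signal over the 13229 genes above the floor in at least 1 culture, in bins of 0.1, with black lines for the 9 members above the floor (line heights carry no value) and dashed lines at 2-fold lower and higher. PSMB9 lies left of the lower dashed line and NLRC5, a bound, right of the upper one, and 17 genes lie outside the range drawn.

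CD74 was not detectable above the floor in either culture. Its 3 probe sets read from 14.0 to 81.9 in spheroid culture and from 19.9 to 103 in monolayer culture, and no ratio is given. Of 11 class II genes, 5 were at the floor in both cultures, among them HLA-DRA on both of its probe sets and HLA-DPA1 on all 3. HLA-DQB1 had 165 in spheroid culture and 109 in monolayer culture on its brightest probe set. HLA-DRB1 had 127 in spheroid culture and 194 in monolayer culture on the probe set that lists it alone. With probe sets that list other genes too, the log2 ratios of HLA-DRB1 ran from -0.61 to 0.71. CIITA, the class II transactivator, had 139 in spheroid culture and 90.9 in monolayer culture on 1 of 3 probe sets, the other 2 being at the floor in both. HLA-DMB, 1 chain of the class II peptide editor, had 1746 in spheroid culture and 264 in monolayer culture on its only probe set, 6.62-fold higher. HLA-DMA, its partner chain, had 347 in spheroid culture and 199 in monolayer culture, 1.74-fold higher. HLA-DOA had 82.9 in spheroid culture, under the floor, and 193.6 in monolayer culture, so its ratio, at least 1.62-fold lower, is a bound. HLA-DMB was the only 1 of the 6 above the floor whose ratio or bound passed 2-fold, and the median log2 ratio of these 6 was 0.48. Of the 13 leukocyte and antigen-presenting cell markers with a probe set, 4 were above the floor in spheroid culture and 4 in monolayer culture. Their summed signal was 1071 in spheroid culture and 1464 in monolayer culture, with values under the floor included. Of this sum CD14, a monocyte marker, made up 111 in spheroid culture, under the floor, and 437 in monolayer culture. The part of these markers in the class II values was not tested.

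Endosomal proteases, which cut CD74 and antigens for class II loading, went both ways. CTSD, which encodes cathepsin D, had 4726 in spheroid culture and 1624 in monolayer culture, 2.91-fold higher, and CTSL, cathepsin L, had 18082 in spheroid culture and 8778 in monolayer culture, 2.06-fold higher. CTSH, cathepsin H, had 643 in spheroid culture and 1383 in monolayer culture, 2.15-fold lower. Of the 13 measured genes of endolysosomal processing and CD74 partners, 2 were at least 2-fold higher and 1 was lower, while 7 lay inside these limits and 3 gave no ratio. The median log2 ratio of the other 10 was 0.56. Among class I-like molecules, FCGRT, the heavy chain of the neonatal Fc receptor that also pairs with beta2-microglobulin, had 1022 in spheroid culture and 344 in monolayer culture, 2.97-fold higher. It was the only 1 of 8 above the floor in that list whose ratio or bound passed 2-fold, and their median log2 ratio was 0.31.

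Signalling that induces antigen presentation genes differed by gene. IRF1, an interferon-induced activator of class I genes, had 629 in spheroid culture and 678 in monolayer culture. JAK2, a kinase of the interferon-gamma receptor, had 637 in spheroid culture and 309 in monolayer culture, 2.06-fold higher, with all 3 probe sets higher. SOCS3, a feedback inhibitor of JAK kinases, had 217 in spheroid culture and 671 in monolayer culture on its brightest probe set, 3.09-fold lower. Its second probe set read 148 in spheroid culture and 175 in monolayer culture, and another read 28.1 in spheroid culture, under the floor, and 190.2 in monolayer culture. Of 14 measured genes of interferon receptor signalling, these were the only 2 whose ratio or bound passed 2-fold, and the median log2 ratio was 0.11. SOCS1, another feedback inhibitor, had 180.0 in spheroid culture and 77.1 in monolayer culture, under the floor, so its 1.66-fold is a bound. Of 6 NF-kappaB genes, NFKBIA, the inhibitor that NF-kappaB induces, was past 2-fold, with 8453 in spheroid culture and 4147 in monolayer culture, and 4 were lower by less. CD58, the ligand of CD2 on T and NK cells, had 3759 in spheroid culture and 1735 in monolayer culture, 2.17-fold higher, and 4 of its 4 probe sets above the floor were higher. CD274, which encodes PD-L1, had 104 in spheroid culture, under the floor, and 120.1 in monolayer culture, just above it.

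Over the 11 related lists together, 100 of 109 genes could be read and 88 were above the floor in at least 1 culture. Of these 88, 8 reached 2-fold upwards and 2 downwards, beside 6.86% and 5.50% of all genes, and their median log2 ratio was 0.06. A further 6 of the 88 have only a bound under 2-fold. Lists with a median above 0.3 were the class I heavy chains (0.82), endolysosomal processing (0.56), class II (0.48), folding and loading (0.32) and class I-like molecules (0.31). Lists with a median below -0.3 were the promoter-binding factors (-0.36), the proteasome list (-0.35) and the NF-kappaB genes (-0.31). The 10 members, with a median of 0.21 over 9, lay between these. Of the 6 members on chromosome 6, 4 were higher and 2 lower, with a median log2 ratio of 0.14.

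**Figure D4:**
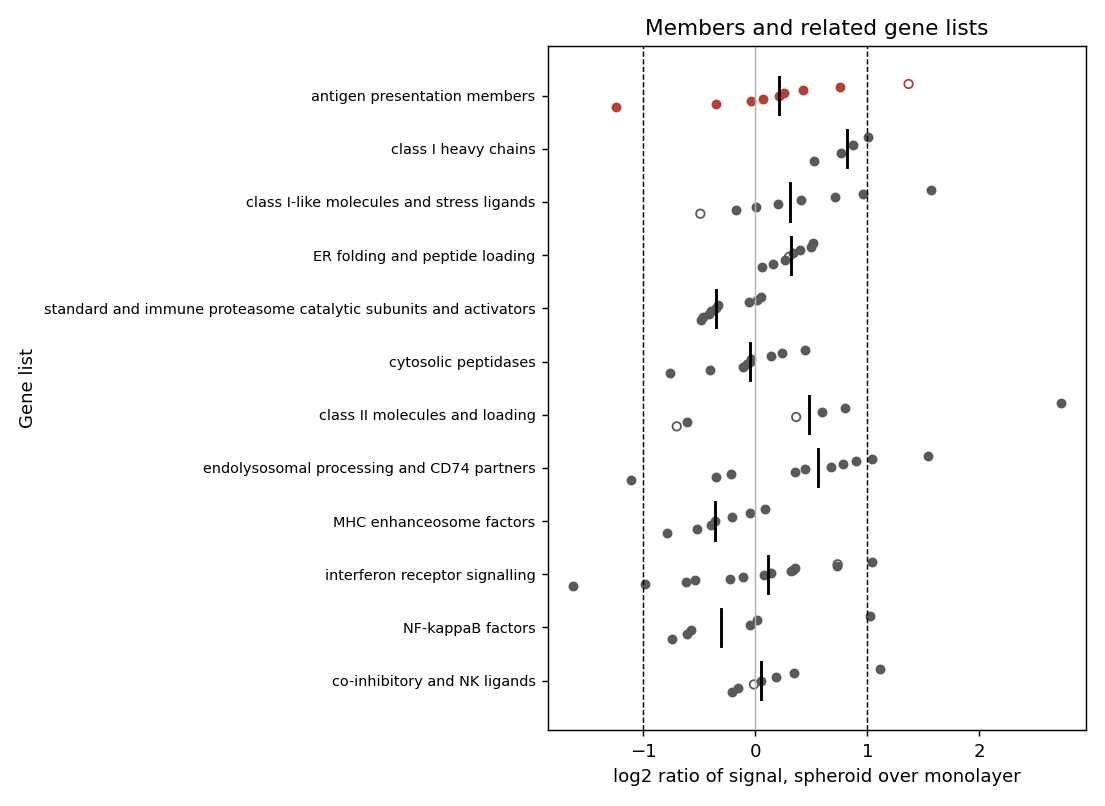
Log2 of spheroid signal over monolayer signal for each gene above the floor in at least 1 culture, by list, with the members in red at the top, open circles for bounds, black bars for the median of each list and dashed lines at 2-fold lower and higher. The rightmost gene is HLA-DMB of the class II list (2.73) and the leftmost is SOCS3 of interferon receptor signalling (-1.63).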

How the data were processed

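Single-colour Affymetrix Human U133 plus 2.0 arrays, 1 for A549 spheroid culture and 1 for A549 monolayer culture, were grouped by sample title. The authors deposited linear signal intensities made with MAS5 and GCOS, versions not given in the sources used here, and scaled to the same trimmed mean (2% left out at each end). The study's later analysis used GeneSpring GX. No further scaling was applied here. Without the 62 control probe sets, the median of each array served as its floor, lower signals were set to it, and log2 ratios put spheroid on top. Gene symbols came from the platform annotation, with Entrez identifiers giving the current symbol of 41043 among 41097 single-gene probe sets. A gene was read from its brightest probe set, and limits were 3-fold and 2-fold. Alternatives were no floor, floors at the 25th and 75th percentile, division by each array's median, quantile normalization, a geometric mean over the probe sets of the gene, leaving out _s_at and _x_at endings, and probe sets with several genes included.

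The members, the 11 related lists, the 3 marker lists and the limits were chosen with earlier results of these data known. The genes named are all members, the standard proteasome subunits, the class I heavy chains, every gene of the related lists past 3-fold, and up to 3 genes per related list and direction past 2-fold, while marker lists were given as counts with their defining markers. CANX, PDIA3, RFX5, PSME1, IRF1, CIITA, HLA-DMA, CD274, ERAP2, SOCS1, HLA-DOA, HLA-DRA and HLA-DPA1 were named after their values were seen. So were HLA-DQB1, HLA-DRB1, CDH1, EPCAM and the markers past 2-fold. Promoters are RefSeq windows on GRCh38.p14. The steps were tested on simulated data, with large changes in bright genes and at the 3-fold limit only. That test does not cover calls at 2-fold or signals near the floor. Precision is limited by there being 1 array per culture. Python 3.11.15, numpy 2.4.6, pandas 2.3.3 and matplotlib 3.10.9 were used.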

Additional observations from a re-analysis of the deposited data

How the results depend on the processing

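Of the 9 members above the floor, 6 kept their direction under every alternative that gave a value. HLA-E was lower without probe sets ending in _s_at or _x_at (log2 ratio -0.34), as was the median of the members (-0.18, with 0.07 over all genes), TAP1 was at -0.07 under division by the array median, and ERAP1 ran from -0.18 to 0.09. That division also moved the median log2 ratio of all genes from 0.04 to -0.10. PSMB9 had a log2 ratio of -0.28 with the floor at the 75th percentile, and NLRC5 had 4.42 with no floor and 2.98 with a 25th percentile floor. Under either of these settings 1 member was at least 3-fold higher, in place of 0. Shares of all genes past 3-fold are given for the main setting only, so 3-fold counts under alternatives have no share beside them. At least 2-fold higher were 13.2% of all genes with no floor and 9.54% with the 25th percentile floor, against 6.86% in the main setting. With the floor at the 75th percentile 5 members were above it, and 0 were at least 2-fold higher and 0 lower, in place of 1 and 1. Over all genes 4.7% were at least 2-fold higher and 4.89% lower with that floor. Over the related lists, the counts with no floor were 2 at least 3-fold higher and 2 lower, in place of 1 and 1, and 6 at least 2-fold lower, in place of 2. With no floor 10.2% of all genes were at least 2-fold lower, against 5.50%. Genes at least 3-fold lower numbered 0 with the floor at the 75th percentile or the geometric mean. Genes at least 2-fold higher, 8 in the main setting, numbered 3 after division by the array median, 5 with the geometric mean and 4 without _s_at and _x_at endings, where the shares over all genes were 5.24%, 4.56% and 6.98%, against 6.86%. Genes at least 2-fold lower numbered 1 with the floor at the 75th percentile, with the geometric mean and without those endings. In these settings 4.89%, 3.84% and 5.09% of all genes were at least 2-fold lower. The cause of these shifts was not tested. B2M, TAP1 and PSMB8 gave no value without _s_at and _x_at endings, and signals near the floor limit what can be said of NLRC5, CIITA and CD74. No paired analysis was possible because each culture has 1 array.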
